A study of Mus musculus with 8 samples.

Results

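Tas2r102, Tas2r110, Tas2r116, Tas2r120 and Tas2r121 encode bitter taste receptors and belong to the group of Tas2r genes near the distal end of mouse chromosome 6. They were taken as the genes of that name in the authors' table of merged ATAC-seq peaks, which assigns each peak to the gene with the nearest annotated transcription start site (TSS). Each gene had 1 peak except Tas2r120, which had 2, giving 6 of 74090 merged peaks and 5 of 18215 genes with a merged peak. ATAC-seq marks open chromatin through a transposase that cuts accessible DNA, so a value here is accessibility near a gene and not its expression. The study profiled 4 populations of medullary thymic epithelial cells (mTEC) sorted from thymi of C57BL/6 mice digested with Collagenase, Dispase and Dnase, with 2 libraries per population, to compare their accessible chromatin. All were CD45- and Epcam+. Beyond that, the gates were MHCII low with Itgb4+ for mTEC-I, MHCII high for mTEC-II, Ly6D+ for mTEC-III, and MHCII low with Itgb4- and L1cam+ for mTEC-IV. The labels give no age, no pooling of animals and no source of the replicates, so p-values rest on the scatter of duplicate libraries that may be technical.

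Bitter receptors are G protein-coupled receptors, one small intronless gene each, that bind bitter compounds on taste receptor cells. Their signal runs through the G protein gustducin and phospholipase C to calcium release and the opening of the cation channel Trpm5. The same receptors and pathway are found outside the tongue in tuft cells, chemosensory epithelial cells that depend on the transcription factor Pou2f3, and tuft cells are known in the thymic medulla.

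Libraries held 3606436 to 10374623 total tags, and 8.44 to 19.7% of tags lay in merged peaks, lowest in mTEC-III. Values below are tags per 10000000 scaled by TMM (trimmed mean of M values), called scaled tags. Each deposited value was a whole number of read ends, and 1 read end was worth 0.442 scaled tags in mTEC-I replicate 1 and 1.67 in mTEC-III replicate 1, the extremes. The tuft cell list and the sort genes were read as checks of mTEC-IV, and of these L1cam was not highest in mTEC-IV. The 13 tuft cell genes summed to 1845 and 1867 scaled tags there and to 942 to 1157 in the other libraries. L1cam, the surface protein used to sort mTEC-IV, averaged 13.9 in it when all its peaks were summed, below the 18.3 of mTEC-I and above 7.49 (mTEC-II) and 10.6 (mTEC-III). The MHCII genes H2-Aa and H2-Ab1 averaged 166.5 and 149.3 in mTEC-IV, the lowest of the 4 populations, and were called lower in all 3 comparisons. Itgb4 averaged 97.7 in mTEC-IV against 164.1 in mTEC-I, near the 96.2 of mTEC-II. Epcam was highest in mTEC-IV, at 580, and Ly6d was called in none of the 3 comparisons. Some genes of blood cells also moved with mTEC-IV. Ptprc, which encodes CD45, averaged 28.5 scaled tags there and 4.53 to 10.1 elsewhere. The 4 thymocyte genes of 6 with a merged peak summed to 60.3 to 70.4 in mTEC-IV and to 8.13 to 28.3 in the other libraries, with Cd3g and Cd8a lacking a merged peak and Rag1 at 0 in every population. Lck and Cd4, at 27.1 and 21.3 in mTEC-IV, made up most of this sum, while Cd3e averaged 17 there against 16.8 (mTEC-III), 14.2 (mTEC-II) and 9.98 (mTEC-I) and was called in none of the 3 comparisons. Of the B cell genes, Cd79a stood at 25.4 to 28.3 in mTEC-IV and 0 to 7.12 elsewhere, and Ms4a1 had no merged peak. The 4 myeloid and dendritic genes of 6 with a merged peak (not Itgax and Csf1r) summed to 177 to 178 in mTEC-IV and 117 to 244 elsewhere. The part of these cells in the results below was not tested.

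The 6 peaks spanned 218.7 kb of chromosome 6 in the authors' mm9 coordinates. From the centromeric side, Tas2r120 had a far peak of 135 bp at chr6:132599557-132599691, centred -7351 bp from its TSS, and a near peak of 119 bp at chr6:132603688-132603806, centred at -3228 bp. Both were annotated as intergenic. Tas2r121 had a peak of 147 bp at chr6:132651350-132651496, at -398 bp. Tas2r102 had a peak of 173 bp at chr6:132711753-132711925, at -310 bp. Tas2r116 had a peak of 130 bp at chr6:132804743-132804872, at -649 bp. These 3 were annotated as promoter peaks. Tas2r110 had a peak of 141 bp at chr6:132818161-132818301, at 205 bp downstream of the TSS and inside its exon. Thus 4 of the 5 genes had their peak within 1 kb of the annotated start.

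RefSeq windows of 300 bases around the start, 250 before and 50 after it, matched 3 of the 5 genes in the GRCm38.p6 build, which is not the build of the peaks. They are shown because the peaks of Tas2r102 and Tas2r110 lie near such a start and because the annotated starts of the 3 genes share a feature. Capitals mark TATAAA or its reverse complement TTTATA, and all 3 windows are on the plus strand.
Tas2r102, chr6:132761881-132762180: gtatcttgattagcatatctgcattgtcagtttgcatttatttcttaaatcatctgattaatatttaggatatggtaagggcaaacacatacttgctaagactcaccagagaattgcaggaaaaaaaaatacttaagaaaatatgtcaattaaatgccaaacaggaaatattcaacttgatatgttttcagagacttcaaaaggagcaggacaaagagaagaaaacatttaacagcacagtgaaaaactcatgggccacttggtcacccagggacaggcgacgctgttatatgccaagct
Tas2r110, chr6:132867758-132868057: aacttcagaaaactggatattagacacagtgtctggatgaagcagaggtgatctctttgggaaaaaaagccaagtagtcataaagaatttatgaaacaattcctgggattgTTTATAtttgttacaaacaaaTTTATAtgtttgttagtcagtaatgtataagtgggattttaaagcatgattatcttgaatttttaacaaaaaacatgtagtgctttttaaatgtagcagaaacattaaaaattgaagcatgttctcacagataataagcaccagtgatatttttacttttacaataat
Tas2r120, chr6:132656707-132657006: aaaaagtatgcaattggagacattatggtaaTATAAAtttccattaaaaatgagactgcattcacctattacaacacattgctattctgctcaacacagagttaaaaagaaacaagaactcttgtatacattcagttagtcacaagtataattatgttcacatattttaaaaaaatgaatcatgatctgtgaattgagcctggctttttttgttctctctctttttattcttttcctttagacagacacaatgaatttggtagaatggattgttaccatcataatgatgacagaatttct

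In these 3 windows the 3 bases from position 251, the first of the gene, read ATG, the letters of a start codon. The annotated start may thus be that of the coding sequence and not the place where transcription begins. The windows were rich in A and T, with 36%, 28.7% and 29.7% G and C in Tas2r102, Tas2r110 and Tas2r120, against a median of 52.7% over 32851 windows and 37% over 31 windows of Tas2r genes. TATAAA on either strand occurred at -139 and -118 in Tas2r110 and at -219 in Tas2r120, counted from the annotated start, and in 13.6% of all windows. The octamer ATGCAAAT of POU factors, the class of Pou2f3, was searched on both strands with ATTTGCAT as its complement. It was in none of the 3 windows, in 1.74% of all windows, in 1 of 20 windows of Tas2r genes on distal chromosome 6 and in 6 of 11 windows of Tas2r genes elsewhere. On either strand, CAGCTG, an E-box of basic helix-loop-helix factors, was in 16.3% of all windows, the SOX factor letters ACAATGG were in 3.66%, and the ETS factor letters CCGGAAG were in 8.86%. None of the 3 windows held any of these. By their distances from the start, the peaks of Tas2r110 and Tas2r120 lie outside these windows, and that of Tas2r102 lies mostly outside. The motif counts therefore describe the windows and not the peaks, whose sequences were not searched.

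All 5 genes were most accessible in mTEC-IV, where both libraries lay above all 6 others. The share of all genes separated in this way was not counted, so the separation is given as a description only. Summed over the 6 peaks, mTEC-IV libraries held 153.9 and 126.4 scaled tags, mTEC-III 31.7 and 13.2, mTEC-II 15.0 and 10.7, and mTEC-I 3.55 and 0. These sums rested on 212 and 239 read ends in mTEC-IV, 19 and 13 in mTEC-III, 13 and 14 in mTEC-II, with 8 and 0 in mTEC-I. mTEC-I replicate 2 had no read end in any of the 6 peaks. In sorted bulk cells, more cells with an open site and a more open site per cell cannot be told apart.

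The way the table was made bears on these comparisons. A region is in the merged table only where at least 1 library's own peak list held it, and all 6 peaks were listed by mTEC-IV libraries alone, 5 by both and the near peak of Tas2r120 by replicate 2. The test kept genes with at least 10 scaled tags in at least 2 libraries, and the 5 genes passed through their mTEC-IV values, since the only other library to reach 10 was mTEC-III replicate 1 for Tas2r121. A direction toward mTEC-IV was thereby largely fixed by how peaks and genes entered the test. The share of genes called higher is therefore given below over all 17640 genes tested and over the 587 genes whose peaks were listed by mTEC-IV libraries alone.

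**Figure D1:**
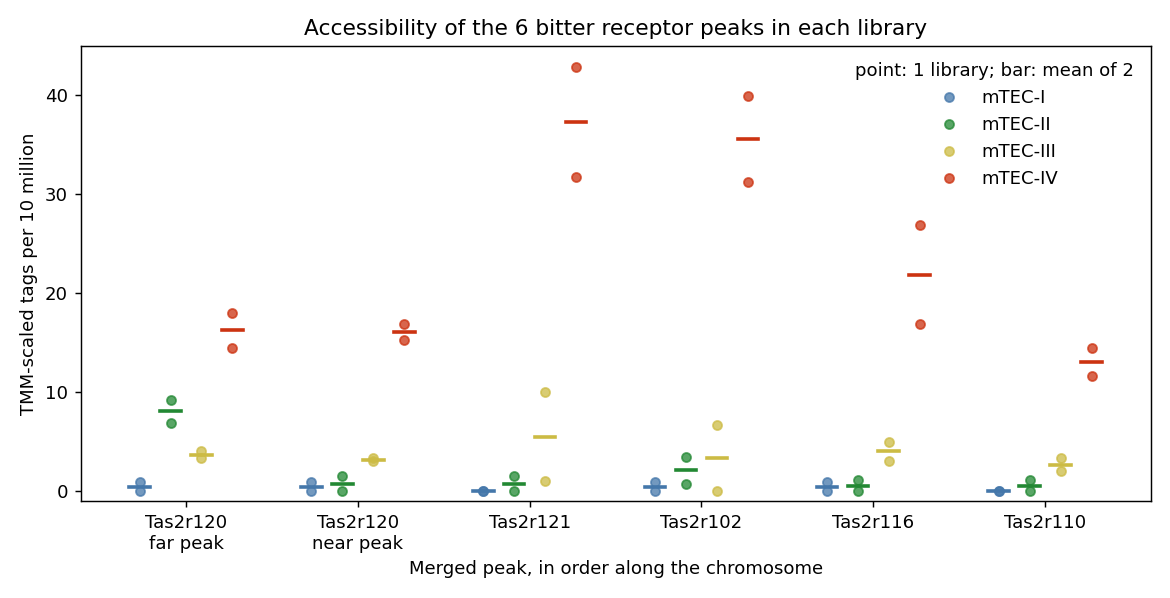
Scaled tags per 10000000 (vertical axis) in the 6 peaks in order along the chromosome, with 1 point per library and a bar at the mean of 2. The mTEC-IV points lie above all others in every peak, and mTEC-II points of the Tas2r120 far peak, at 9.22 and 6.91, stand above mTEC-I and mTEC-III.

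Tas2r121 had the highest level. Its peak held 42.8 and 31.7 scaled tags in mTEC-IV, 10.0 and 1.01 in mTEC-III, 0 and 1.54 in mTEC-II, with 0 and 0 in mTEC-I. The mTEC-IV libraries stood well above the rest, and the mTEC-III libraries differed widely, with 6 read ends in one and 1 in the other. In the authors' own lists the peak stood 19.28-fold and 16.04-fold over its surroundings in the mTEC-IV libraries. With no read end in mTEC-I, pooled read ends put mTEC-IV at least 49.9-fold higher, taking 3 read ends over the group as the floor. The pooled ratio was 39.5 against mTEC-II (95% exact interval 10.7 to 330) and 8.23 against mTEC-III (3.87 to 20.9), where intervals cover counting error only.

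Tas2r102 stood next. Its peak held 39.9 and 31.2 scaled tags in mTEC-IV, 6.67 and 0 in mTEC-III, 3.46 and 0.763 in mTEC-II, with 0.887 and 0 in mTEC-I. The 3 other populations overlapped one another. Pooled ratios of mTEC-IV were 71.6 over mTEC-I, which had 2 read ends (19.4 to 599), 18.9 over mTEC-II (7.19 to 70.6) and 13.8 over mTEC-III (5.24 to 51.5).

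Tas2r116 held 26.9 and 16.9 scaled tags in mTEC-IV, 4.99 and 3.05 in mTEC-III, 1.15 and 0 in mTEC-II, with 0.887 and 0 in mTEC-I. The mTEC-III libraries, with 3 read ends each, lay between mTEC-IV and the overlapping mTEC-I and mTEC-II. The pooled ratio of mTEC-IV over mTEC-III was 5.57 (2.43 to 15.7).

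Tas2r110, the gene with its peak in the exon, had the lowest level. It held 14.5 and 11.6 scaled tags in mTEC-IV, 3.33 and 2.04 in mTEC-III, 1.15 and 0 in mTEC-II, with 0 and 0 in mTEC-I. Populations kept the same order as in Tas2r116, and mTEC-III rested on 2 read ends per library. mTEC-IV was at least 17.6-fold higher than mTEC-I by the same floor, and 5.08-fold (1.84 to 19.5) higher than mTEC-III in pooled read ends.

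Tas2r120 had the most read ends of the 5 genes in mTEC-II. Its 2 peaks together held 29.8 and 34.9 scaled tags in mTEC-IV, 6.67 and 7.12 in mTEC-III, 9.22 and 8.45 in mTEC-II, with 1.77 and 0 in mTEC-I. In mTEC-II these values rested on 8 and 11 read ends. The far peak held 14.5 and 18 in mTEC-IV, 3.33 and 4.07 in mTEC-III, 9.22 and 6.91 in mTEC-II, with 0.887 and 0 in mTEC-I. The near peak held 15.2 and 16.9 in mTEC-IV, 3.33 and 3.05 in mTEC-III, 0 and 1.54 in mTEC-II, with 0.887 and 0 in mTEC-I. The peaks, 4.1 kb apart, were thus of like height in mTEC-IV, while 17 of the 19 read ends of mTEC-II were in the far one. The pooled ratio of mTEC-IV over mTEC-II was 2.11 (1.20 to 3.88) in the far peak and 17.6 (4.64 to 149) in the near peak.

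Per 100 bp of peak, the mTEC-IV means were 25.4 scaled tags in Tas2r121, 20.6 in Tas2r102, 16.8 in Tas2r116, 13.5 and 12 in the near and far peaks of Tas2r120, and 9.28 in Tas2r110. Neighbours in this order overlapped between libraries except the last pair, where the far peak of Tas2r120 (10.8 to 13.3) lay just above Tas2r110 (8.25 to 10.3). Replicate 1 was the higher mTEC-IV library in 4 genes and replicate 2 in both peaks of Tas2r120. Some Tas2r genes are similar in sequence, and how reads that fit more than 1 of them were placed is not given in the sources used here.

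Against mTEC-I, all 5 genes were higher in mTEC-IV by limma on log2(scaled value + 1), a scale that understates changes of low values, with p-values adjusted by Benjamini-Hochberg over all genes tested. The background was 20.8% of all genes called higher and 78.7% of genes listed by mTEC-IV alone. The differences were 5.24 ± 0.851 in Tas2r121 (SE, adjusted p = 5.85e-05), 4.72 ± 0.881 in Tas2r102 (0.00025), 4.32 ± 0.603 in Tas2r120 (1.08e-05), 4.02 ± 0.788 in Tas2r116 (0.000405) and 3.81 ± 0.848 in Tas2r110 (0.00129). Their median was 4.32, and that of all genes was 0.15. The same test on single peaks called 6 of 6 higher, where 20.5% of 58817 peaks were, and 75% of peaks listed by mTEC-IV alone. With either mTEC-IV library left out, the filter kept 0 of the genes (without replicate 1) or Tas2r121 alone (without replicate 2). With the tested genes held as before, all 5 differences stayed positive without each of the 8 libraries in turn. That held set was chosen with both mTEC-IV libraries included, so it gives no separate check of either one.

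Against mTEC-II, all 5 genes were again called higher in mTEC-IV, beside 14.5% of all genes and 60.1% of those listed by mTEC-IV alone. Differences were 4.57 ± 0.851 in Tas2r121 (adjusted p = 0.000441), 3.93 ± 0.788 in Tas2r116 (0.000885), 3.69 ± 0.881 in Tas2r102 (0.00364), 3.25 ± 0.848 in Tas2r110 (0.00704) and 1.76 ± 0.603 in Tas2r120 (0.0365). Of single peaks, 5 of 6 were called, beside 14.2% of all peaks and 59% of those listed by mTEC-IV alone. The exception was the far peak of Tas2r120, at 0.93 ± 0.643 (adjusted p = 0.321), while its near peak was 3.42 ± 0.705 higher (0.00189). Counts of genes called fell to 2 without mTEC-II replicate 2, and, with the tested genes held, to 2 without mTEC-IV replicate 1 and 3 without mTEC-IV replicate 2. Tas2r120 lost its call without either mTEC-II library and with the deposited scaling (adjusted p = 0.0615), a pseudocount of 0.5 (0.0787) or only peaks within 10 kb (0.06). DESeq2 on the read ends lost Tas2r102 (0.0544).

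Against mTEC-III the differences were smaller, and 3 of 5 genes were called higher in mTEC-IV, beside 14% of all genes and 47.7% of those listed by mTEC-IV alone. Tas2r102 was 3.71 ± 0.881 higher (adjusted p = 0.00453), Tas2r121 3.01 ± 0.851 (0.0143) and Tas2r120 2.07 ± 0.603 (0.0169). Tas2r116 at 2.18 ± 0.788 (0.0504) and Tas2r110 at 1.95 ± 0.848 (0.103) did not pass. In the fit over single peaks all 6 passed, with adjusted p from 0.0066 to 0.0481, beside 11.2% of all peaks and 43.2% of those listed by mTEC-IV alone. These calls lay near the threshold. With the tested features held, 0 and 1 genes and 0 and 0 peaks were called without mTEC-IV replicates 1 and 2, 2 peaks without either mTEC-I library, and 0 peaks without mTEC-III replicate 2. Without mTEC-III replicate 2 the difference in Tas2r121 was 1.79 (0.107) and that in Tas2r102 2.25. DESeq2 called 1 of 5 genes, and edgeR's quasi-likelihood test on the same read ends called 4. The deposited scaling and a pseudocount of 5 gave 5. In none of these alternatives was any of the 5 genes lower in mTEC-IV. Against the mean of the other 3 populations, 5 of 5 were called, beside 19.3% of all genes and 73.4% of those listed by mTEC-IV alone.

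**Figure D2:**
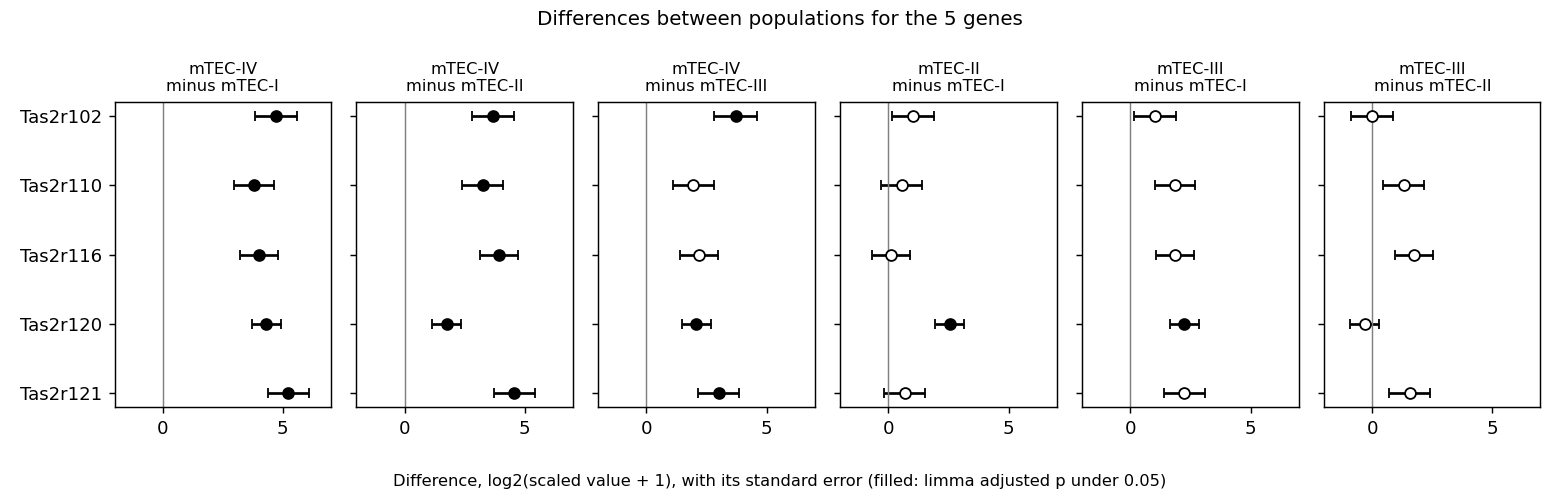
Differences between populations (horizontal axis, log2 of scaled value + 1) with standard errors for the 5 genes in 6 comparisons, filled where limma's adjusted p was under 0.05. All points of the 3 mTEC-IV comparisons lie right of 0, and among the other populations only the 2 Tas2r120 points against mTEC-I are filled.

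Between the other populations, Tas2r120 was the one gene called. It was higher in mTEC-II than in mTEC-I by 2.56 ± 0.603 (adjusted p = 0.00402), beside 11.6% of all genes called higher and 12.4% of those listed by mTEC-IV alone, and in mTEC-III than in mTEC-I by 2.24 ± 0.603 (0.00932), beside 12.1% and 25.6%. Its far peak differed by 2.71 ± 0.643 between mTEC-II and mTEC-I (0.00861, beside 9.86% of all peaks), and its near peak by 0.21 ± 0.705 (0.87). Both gene calls were lost without mTEC-I replicate 2, the library at 0, at 1.81 (0.0885) and 1.5 (0.157). The other 4 genes differed by 0.10 to 1.03 between mTEC-II and mTEC-I, and by 1.01 to 2.23 between mTEC-III and mTEC-I with adjusted p from 0.0585 to 0.426. Tas2r121 passed in the second of these comparisons with edgeR (0.00789), DESeq2 (0.0252), the deposited scaling (0.0472) and no filter (0.048). Without mTEC-II replicate 1 or 2 the count called there was 2, and without mTEC-III replicate 2 it was 3.

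The test did not tell mTEC-II and mTEC-III apart. None of the 5 genes was called by limma, beside 0.374% of all genes and 0.681% of those listed by mTEC-IV alone called higher in mTEC-III, and 1 had an unadjusted p under 0.05, Tas2r116 at 1.75 ± 0.788 (adjusted p = 0.331). edgeR called 0 of the 5 and DESeq2 0 of the 4 it tested, and 0 had an unadjusted p under 0.05 in either. Tas2r102 and Tas2r120 had differences of -0.02 and -0.32, and Tas2r110 and Tas2r121 of 1.31 and 1.56. These values rest on 0 to 11 read ends per library.

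The surrounding chromatin held few other peaks. Within 500 kb of the outermost of the 6 peaks the table had 14 merged peaks, of which 10 were assigned to 9 Tas2r genes. All 10 were listed by mTEC-IV libraries alone, as were 20.1% of all merged peaks. Between the first and the last of the 6 peaks lay 8 peaks in all, each assigned to a Tas2r gene as the nearest start. The neighbours were Tas2r122, Tas2r115, Tas2r129 and Tas2r103. The Tas2r122 peak lay at -315 bp from the start, and those of the others were intergenic at 11884, -17452 and 16440 bp. Tas2r115 averaged 14.1 scaled tags in mTEC-IV, 2.50 in mTEC-III, 0 in mTEC-II and 0.985 in mTEC-I. Tas2r103 averaged 17.1 in mTEC-IV and 0 to 1.02 elsewhere. Tas2r122, at 11.9 in mTEC-IV, and Tas2r129, at 10.2, did not reach the filter.

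The window also held 4 peaks assigned to genes outside the Tas2r family. The promoter peak of Smim10l1, listed by 7 libraries, averaged 53.0, 42.6, 64.8 and 77.5 scaled tags in mTEC-I to mTEC-IV, and its second peak 19, 28.8, 22.4 and 35.1. Prb1, a salivary proline-rich protein gene, had a peak listed by 1 mTEC-I library, at 6.33 in mTEC-I, 1.72 in mTEC-IV and 0 in the others. A630073D07Rik, 19.7 kb before the first of the 6 peaks, averaged 11.4 in mTEC-IV and 0.578 to 2.69 elsewhere, and its peak was listed by 1 mTEC-IV library alone. In the fit over peaks it was higher in mTEC-IV than in mTEC-I by 2.04 (limma adjusted p = 0.0307) and than in mTEC-II by 3.08 (0.00432), and by 1.77 than in mTEC-III without passing (0.085).

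**Figure D3:**
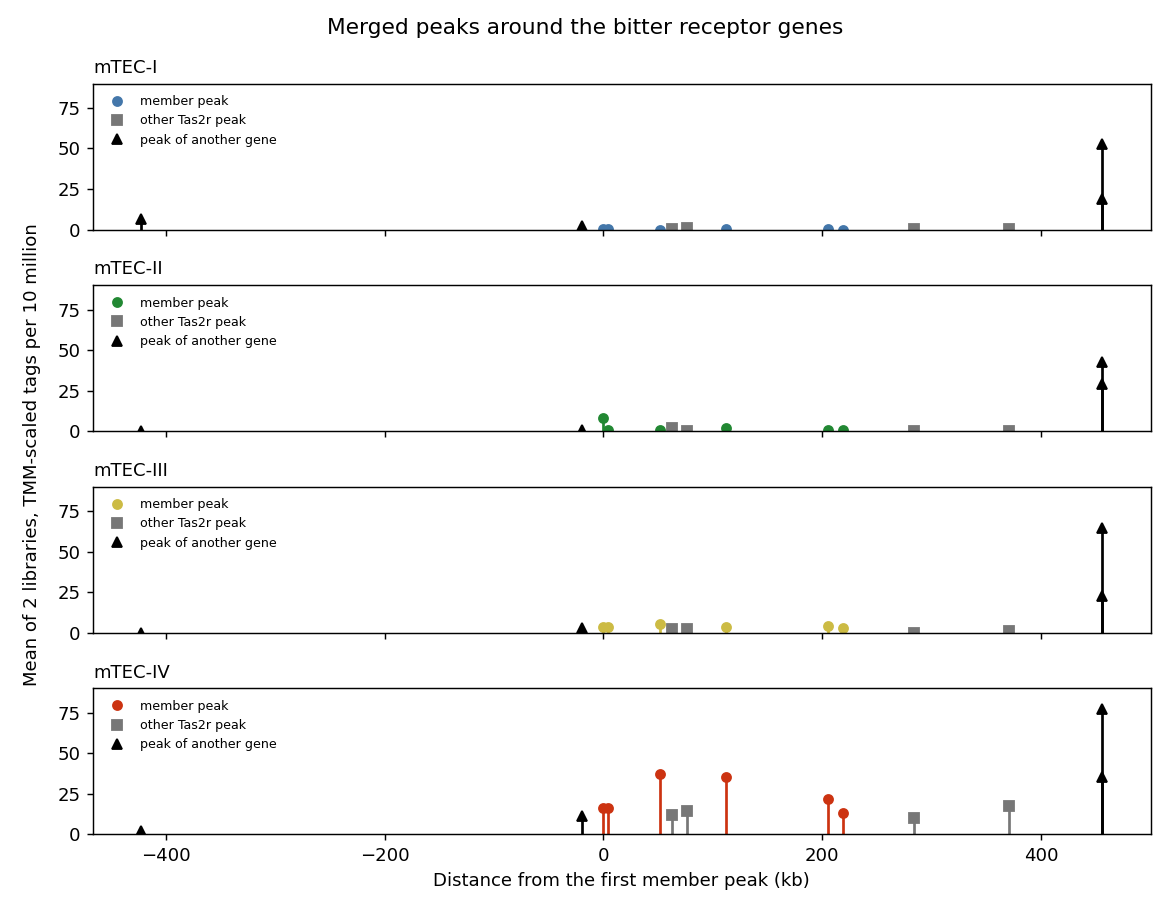
Mean scaled tags (vertical axis, 1 panel per population) of the 14 merged peaks within 500 kb, by distance in kb from the first Tas2r120 peak. The Tas2r peaks stand from 10.2 to 37.3 in mTEC-IV and near 0 in mTEC-I, whereas the Smim10l1 peaks near the right edge are present in all 4 populations.

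Of 24 protein-coding Tas2r genes on distal chromosome 6 in RefSeq, 10 had a merged peak, the 5 described and 5 others. The fifth of these others, Tas2r107, lies outside the window and averaged 35.8 scaled tags in mTEC-IV, 4.35 in mTEC-III, 0.382 in mTEC-II and 0.761 in mTEC-I. Of the 5 others, 3 were tested (Tas2r103, Tas2r107, Tas2r115), and all 3 were called higher in mTEC-IV against each population. Against mTEC-I, mTEC-II and mTEC-III, 20.8%, 14.5% and 14% of all genes were called higher. Of genes listed by mTEC-IV alone, 78.7%, 60.1% and 47.7% were. All 3 passed the filter through their mTEC-IV values, with at most 2.04, 6.67 and 4.99 scaled tags in any other library. Tas2r107 was higher by 4.41, 4.79 and 2.93 against mTEC-I, mTEC-II and mTEC-III (limma adjusted p = 9.55e-05, 7.9e-05 and 0.00749).

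Elsewhere in the genome, 9 Tas2r genes had a merged peak. Against mTEC-I, mTEC-II and mTEC-III, 6, 6 and 7 of them were called higher in mTEC-IV, where 20.8%, 14.5% and 14% of all genes were. Called lower were 0, 1 and 1, where 16.5%, 10.7% and 9.25% of all genes were. The median differences of these 9 genes were 1.22, 1.90 and 1.80, beside 4.32, 3.69 and 2.18 in the 5 genes described. Several were already open in other populations. Tas2r118 averaged 73.0 scaled tags in mTEC-I and 113.5 in mTEC-IV, and Tas2r143 averaged 41.9 in mTEC-I and 38.4 in mTEC-IV and was not called in any of the 3 comparisons. Others had a pattern near that of the distal group. Tas2r119 held 0 in all mTEC-I and mTEC-II libraries, 1.66 and 2.04 in mTEC-III, and reached 30.5 and 31.7 in mTEC-IV. Tas2r137 averaged 71.7 in mTEC-IV, 10.1 in mTEC-III and 0.934 in mTEC-I. Tas2r135 went the other way, at 25.7 in mTEC-II, 19.95 in mTEC-III, 3.76 in mTEC-IV and 1.87 in mTEC-I. It was lower in mTEC-IV than in mTEC-II by -2.50 (adjusted p = 0.00259) and than in mTEC-III by -2.07 (0.012). Over all 39 Tas2r peaks, 31 were listed by mTEC-IV libraries alone, and of the 16 within 1 kb of a start, 15 were.

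**Figure D4:**
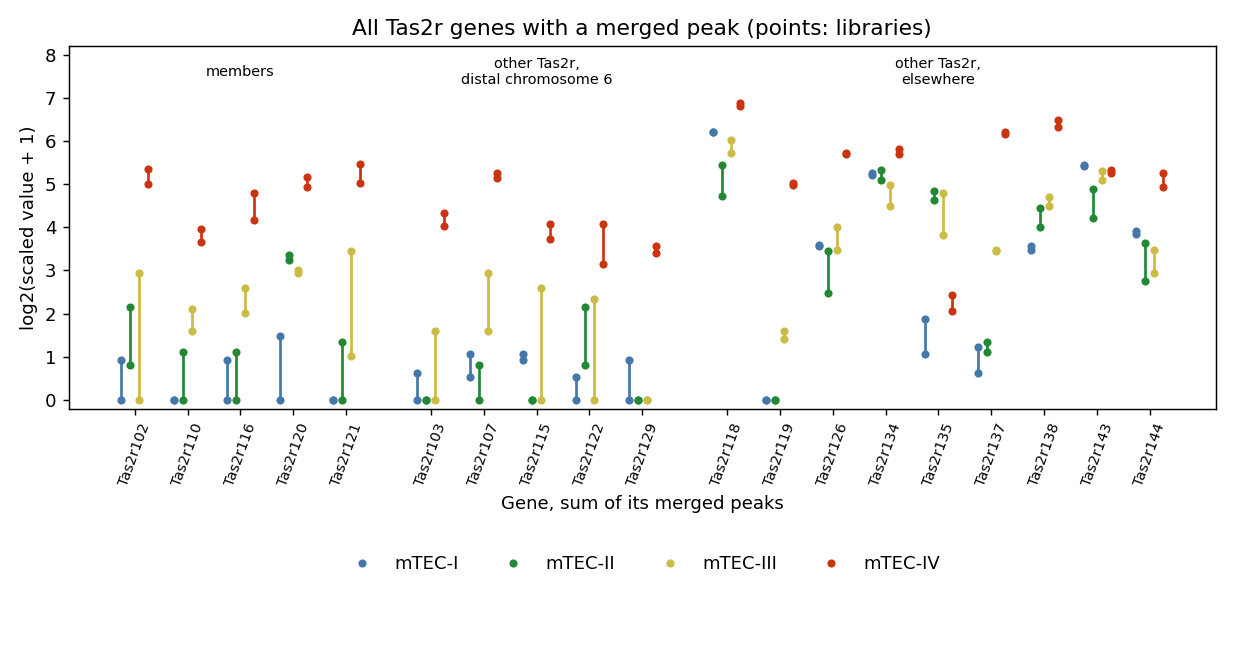
log2(scaled value + 1) of each library (points, joined within a population) for the 19 Tas2r genes with a merged peak, in 3 groups. The 10 genes of distal chromosome 6 are highest in mTEC-IV and mostly near 0 in mTEC-I, while Tas2r118, Tas2r134 and Tas2r143 are open in all 4 populations and Tas2r135 is highest in mTEC-II and mTEC-III.

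A list of taste cell genes was also read, holding sweet and umami receptor subunits, the signalling genes downstream of taste receptors, and genes of ATP release and breakdown. Of its 15 genes, 14 had a merged peak (not Calhm3) and 13 were tested (not Tas1r1). Against mTEC-I, mTEC-II and mTEC-III, 9, 7 and 9 of 13 were called higher in mTEC-IV, where 20.8%, 14.5% and 14% of all genes were. Called lower were 1, 0 and 0, where 16.5%, 10.7% and 9.25% of all genes were. The medians of the list were 1.49, 0.94 and 1.52, where all genes had 0.15, 0.09 and 0.13. The list was chosen with earlier results of these data known.

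Among receptors, Tas1r3, the shared subunit of the sweet and umami receptors, averaged 37.8 scaled tags in mTEC-IV, 7.04 in mTEC-III, 1.15 in mTEC-II and 0.985 in mTEC-I. It was higher by 4.29, 4.42 and 2.38 against mTEC-I, mTEC-II and mTEC-III (limma adjusted p = 7.98e-05, 0.000117 and 0.0207). Tas1r2, the sweet receptor's other subunit, averaged 21 in mTEC-IV and 25.7 in mTEC-III and was not called.

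Of the G protein and its regulators, Gnat3, the alpha subunit gustducin, averaged 82.1 in mTEC-IV and 13.5 to 17.7 elsewhere and was called in all 3 comparisons. Its partners Gnb3 and Gng13 averaged 78.2 and 70.9 in mTEC-IV and were called against mTEC-I and mTEC-III but not against mTEC-II (adjusted p = 0.101 and 0.0628). Rgs21, which ends G protein signals in taste cells, averaged 133.3 in mTEC-IV, 25.9 in mTEC-III, 9.41 in mTEC-II and 6.11 in mTEC-I. It was higher by 4.34, 3.70 and 2.33 (7.07e-08, 1.78e-06 and 0.000336). Ric8b averaged 174.2 in mTEC-IV and 90.3 to 95.7 elsewhere.

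Of the effectors, Plcb2, the phospholipase C of taste cells, averaged 69.1 in mTEC-IV and 18.5 to 35.2 elsewhere and was called in all 3 comparisons. Itpr3, the calcium release channel, averaged 105.1 in mTEC-IV and 118.5 in mTEC-I and was called in none. Trpm5 averaged 32.9 in mTEC-IV and 1.26 to 3.88 elsewhere, and was called in all 3 comparisons. The related channel Trpm4 averaged 45.4 to 61.9 and was not called. Calhm1, a subunit of the channel that releases ATP from taste cells, averaged 53.2 in mTEC-IV and 2.09 to 6.90 elsewhere. Entpd2, an ATP-degrading enzyme of the glia-like taste cells, was the one gene called lower, at 46.3 in mTEC-IV against 76.0 in mTEC-I (-0.70, adjusted p = 0.0147).

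Across the 8 libraries, the log2 values of the 5 genes correlated with one another at Pearson's r from 0.789 to 0.983 over 10 pairs. The 8 libraries are pairs from 4 populations and are not independent points. Among 14501 other genes averaging at least 10 scaled tags, those closest to the mean of the 5 were Cd200r3 (r = 0.992), Krt28 (0.991), Noxred1 (0.987), Chchd3 (0.986) and Ubac1 (0.985). Cd200r3 held 71.2 and 59.2 scaled tags in mTEC-IV, 15.0 and 3.05 in mTEC-III, 2.30 and 3.07 in mTEC-II, with 1.33 and 0 in mTEC-I, so that mTEC-III replicate 1 stood above replicate 2 as in Tas2r121. Krt28, a keratin gene, had a shallower course, at 46.5 and 45.5 in mTEC-IV and 17.7 and 14.6 in mTEC-I. Chchd3 was on the same chromosome, with 185.2 and 185.1 in mTEC-IV and 86.6 and 85.7 in mTEC-I.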

How the data were processed

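ATAC-seq libraries of 4 sorted mTEC populations, 2 each, were grouped by their titles. The submitters' processing notes name mm9, HOMER, Picard 1.108 and bcl2fastq 2.15.0.4. Not given in the sources used here are the aligner, duplicate removal and any shift of read ends. Peaks were called by the authors library by library with HOMER findPeaks, per the file headers (fragment length 300, false discovery rate 0.001, at least 4-fold over 10000 bp). The deposited lists hold a normalized signal and a fold ratio per peak, and the deposited merged table holds signal in tags per 10000000 of total tags. This deposited signal was a whole number of read ends in 100% of values, within a rounding tolerance of 0.0051.

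Values were scaled by TMM factors, summed over all peaks of a gene, filtered (at least 10 in at least 2 libraries) and fitted with limma 3.58.1 (R 4.3.3, trend) on log2(value + 1) over all 8 libraries, with Benjamini-Hochberg adjustment over all features and a threshold of 0.05. edgeR 4.0.16 and DESeq2 1.42.0 on the read ends, other scalings, pseudocounts and filters, a replicate block and leaving out each library were alternatives. Leaving out libraries with the tested features held, as chosen with all 8 libraries, was added after seeing the data. The 5 genes and all gene lists were chosen with earlier results of these data known. Named are the 5 genes, all other Tas2r genes, the taste list, neighbours within 500 kb and the 5 genes of nearest pattern. Tuft cell, blood cell, stromal and other epithelial lists were counted as sums. Mature mTEC genes summed to 524 to 563 in mTEC-IV and 665 to 954 elsewhere, thymic epithelium genes to 499 to 519 and 595 to 1033, cortical genes to 311 to 370 and 353 to 492, mesenchyme genes to 114 to 137 and 129 to 251, endothelium genes to 185 to 213 and 263 to 420. The 7 sort genes summed to 1054 to 1113 and 1070 to 1295.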

Additional observations from a re-analysis of the deposited data

How the results depend on the processing

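Every difference of the 5 genes between mTEC-IV and another population was positive in each alternative that tested it. Calls against mTEC-III were the least stable: 5 of 5 with the deposited scaling, 5 with a pseudocount of 5 and 1 with DESeq2, and member peaks numbered 2 with a pseudocount of 0.5, 3 with no filter, 0 with DESeq2 and 3 with the replicate block, where 6 were called. Between mTEC-III and mTEC-I, 2 genes were called with the deposited scaling, no filter, edgeR and DESeq2. Deviations of same-numbered libraries from their population means correlated at -0.014 to 0.033 over 58817 peaks. Such values show little shared deviation and cannot tell whether the libraries were prepared as pairs. The replicate block gave 5, 5 and 4 genes called against mTEC-I, mTEC-II and mTEC-III.

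Over all genes, the deposited scaling shifted the median difference to 0.74 between mTEC-IV and mTEC-III, -0.98 between mTEC-III and mTEC-I and -0.78 between mTEC-III and mTEC-II, and called 2895 genes between mTEC-IV and mTEC-II (4451 with TMM), 9842 between mTEC-IV and mTEC-III (4099), of which 9318 were higher in mTEC-IV (2468), 12903 between mTEC-III and mTEC-I (4597), of which 369 were higher in mTEC-III (2142), and 10552 between mTEC-III and mTEC-II (83), of which 62 were higher in mTEC-III (66). Of 5086 called between mTEC-IV and mTEC-I, 1398 were higher in mTEC-IV (3664 of 6574), of 2895 between mTEC-IV and mTEC-II 1273 (2555 of 4451), and of 3201 between mTEC-II and mTEC-I 774 were higher in mTEC-II (2049 of 4220). With peaks within 10 kb alone, genes called were 3352 (mTEC-IV and mTEC-I), 1993 (mTEC-IV and mTEC-II), 1816 (mTEC-IV and mTEC-III), 2778 (mTEC-IV and the mean of the other 3, 5793 otherwise), 1835 (mTEC-II and mTEC-I), 2381 (mTEC-III and mTEC-I) and 1 (mTEC-III and mTEC-II).

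With 1 library left out, genes called ranged from 4107 to 7341 (mTEC-IV and mTEC-I), 2173 to 5153 (mTEC-IV and mTEC-II), 1577 to 4370 (mTEC-IV and mTEC-III), 2694 to 6601 (mTEC-IV and the mean), 1890 to 5048 (mTEC-II and mTEC-I), 2151 to 4860 (mTEC-III and mTEC-I) and 6 to 523 (mTEC-III and mTEC-II), and peaks called from 11262 to 26642, 4906 to 18524 and 3416 to 14086 in the first 3. Of the 5 genes, 0 to 5 were called against mTEC-I, mTEC-II and the mean, 0 to 4 against mTEC-III, 0 to 1 between mTEC-II and mTEC-I and 0 to 3 between mTEC-III and mTEC-I, and of the 6 peaks 0 to 6, 0 to 5 and 0 to 6. Against mTEC-I, mTEC-II and the mean, 0 came from the fit without mTEC-IV replicate 1, where none of the 5 genes passed the filter.

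Differences that changed sign were uncalled. Tas2r116 between mTEC-II and mTEC-I was -0.063 with edgeR and -0.057 with DESeq2, and with 1 library left out it ranged from -0.45 to 0.63, at -0.35 without mTEC-I replicate 2 and -0.45 without mTEC-II replicate 1. Tas2r102 between mTEC-III and mTEC-I ranged from -0.48 to 2.52 with 1 library left out, being lowest without mTEC-III replicate 1, and between mTEC-III and mTEC-II it was 0.13 with a pseudocount of 5, 0.49 with edgeR, 0.67 with DESeq2, 0.65 without mTEC-II replicate 1 and 1.47 without mTEC-III replicate 2, where leaving out 1 library gave -1.56 to 1.47. The cause was not tested. Outside mTEC-IV each value rests on 0 to 11 read ends per library.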
